A study of Mus musculus with 12 samples.

Results

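The second interval of tumour regression, from day 3 to day 6 after doxycycline withdrawal, was examined by comparing the 3 arrays labelled as 6 days regressed with the 3 labelled as 3 days regressed, 6 of the 12 arrays in the series. All grafted cells and control muscles carried the alleles Myf5Cre, R26-LSL-rtTA and Col1a-Teto-hYAP1 S127A on a C57BL/6 background, in which Cre from the Myf5 locus, active in the muscle lineage, permits doxycycline to switch on a mutant human YAP1 (S127A) that escapes inhibitory phosphorylation. Donor mice received doxycycline for 4 weeks, interstitial hindlimb muscle cells were then grafted into gastrocnemius muscle of NOD/SCID hosts that also received doxycycline, and the resulting tumours were taken with the drug still given (day 0), or after the hosts had been without it for 3 or 6 days. The fourth group was hindlimb muscle of mice with the same alleles that never received doxycycline, and each group held 3 arrays. The tumours therefore lay in host muscle and could contain host muscle, vessels, stroma and innate immune cells, whereas NOD/SCID hosts lack mature T and B cells. The labels do not say whether replicates were separate animals, so p-values measure the spread between these samples, which may be technical.

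YAP1 is a transcriptional coactivator that works through the TEAD family of DNA-binding proteins, and the Hippo kinases restrain it. In the muscle lineage, YAP1 activity goes with proliferation of myoblasts, while MyoD, myogenin and MEF2 factors drive withdrawal from the cell cycle, fusion into myotubes and expression of sarcomere genes. New myotubes first make embryonic, perinatal and cardiac-type contractile proteins and immature acetylcholine receptors, and adult fast isoforms and calcium-handling proteins follow as fibres mature and are innervated. Regressing or injured muscle also holds macrophages, whose phagocytic and lipid-handling programmes accompany the clearing of dead cells.

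Levels are given as the log2 of the deposited intensity, in the order of replicates 1, 2 and 3, and a difference of 1 is a 2-fold change. Array medians were close, between 86.74 and 93.05 intensity units. Genes were tested with limma over 19937 genes, and a gene is said to have risen or fallen when its Benjamini-Hochberg adjusted p was under 0.05. Day 6 replicate 2 stood apart from its group: on the third principal component, which held 4.2% of the variance, it lay at -6.4, against 26.3 and 26.0 for replicates 1 and 3 and -16.9 to -13.6 for the day 3 arrays. Each result was therefore also computed without it. Because the array was left out for lying near day 3, its removal tends to widen differences and lower p-values. Results without it are therefore given as descriptions. The median SD was 0.096 on the log2 scale among the 3 day 6 arrays and 0.101 among the 3 day 3 arrays. Between day 6 replicates 1 and 3 it was 0.046. That value comes from 2 arrays kept because they lay together, so it is not comparable with an SD of 3 arrays.

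Between day 3 and day 6, 17 of 18 embryonic, perinatal and cardiac-type sarcomere genes rose. Of these 18 genes, 12 were higher in control muscle than in day 0 tumour and 4 were lower. Some members of other groups fell: 4 of 10 granzyme and perforin genes, 7 of 24 macrophage markers, 8 of 20 endothelial markers and 10 of 23 collagen and matrix genes. The adult fast sarcomere genes were mixed, with 8 of 26 risen and 3 fallen. Most of these counts changed when 1 array was left out, as given with each group. Of 19937 genes, 2080 (10.4%) were called, 1206 higher at day 6 (6.05%) and 874 lower (4.38%), and 108 of these differed at least 2-fold, 76 of them higher. Without day 6 replicate 2 the fit called 4874 genes (24.4%), 2401 higher (12%) and 2473 lower (12.4%), among them 2064 of the first 2080 with the same direction. These 2064 made up 99.2% of the first list and 42.3% of the second. Each list count below is read against the shares of all genes: 6.05% higher and 4.38% lower, or 12% and 12.4% without replicate 2. The counts depended on the estimate of spread shared with the other groups: a fit of the 6 arrays alone called 30 genes (19 higher, 11 lower, and 3698 at an unadjusted p under 0.05), all of them among the 2080, and without replicate 2 the 5 remaining arrays called 3790. Leaving out day 6 replicate 1 gave 521 calls and replicate 3 gave 452, leaving out day 3 replicates 1, 2 or 3 gave 990, 905 or 1987. At 4218 genes (21.2%) the 3 day 6 arrays did not overlap with the 3 day 3 arrays, 12.4% higher and 8.73% lower. In bulk tissue, fewer cells of a type and less RNA per cell cannot be told apart, so a marker that fell may reflect either.

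**Figure D1:**
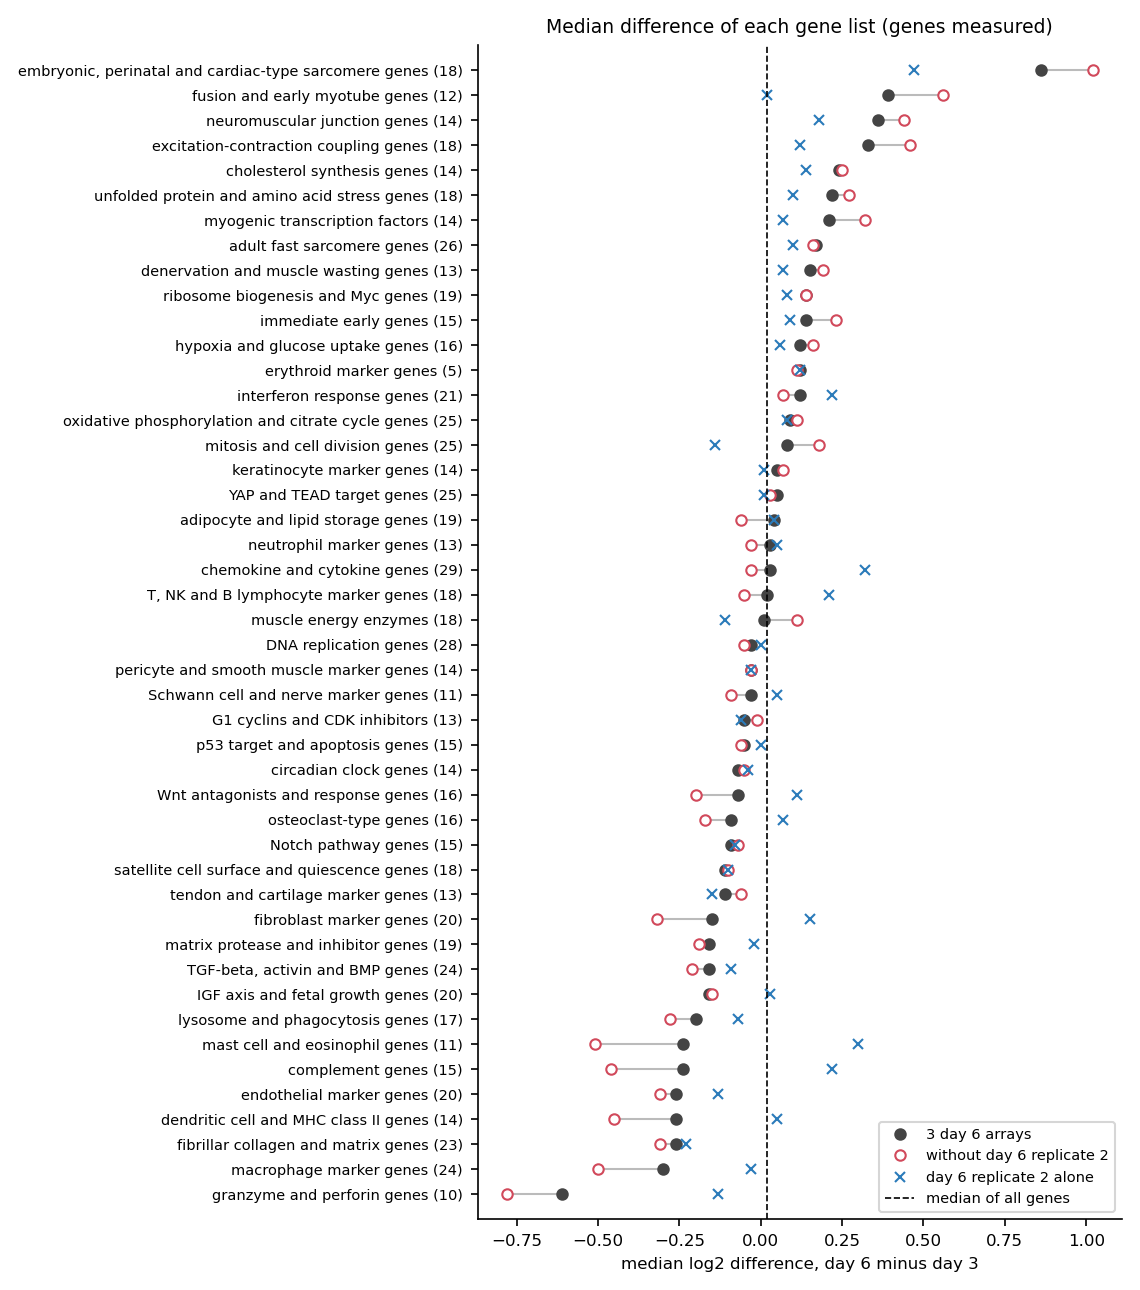
Median log2 difference (day 6 minus day 3, horizontal axis) of each of 46 gene lists, with the number of measured genes in brackets; filled circles use the 3 day 6 arrays, open circles leave out replicate 2, crosses show replicate 2 alone against the day 3 mean, and the dashed line marks the median of all genes (0.018). Sarcomere genes of the embryonic and cardiac type lie farthest to the right at 0.86 and the granzyme and perforin list farthest to the left at -0.61, and for the macrophage, complement and mast cell lists the cross lies well to the right of the open circle.

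The embryonic, perinatal and cardiac-type sarcomere genes moved together: 17 of 18 rose and none fell, with a median of 0.86 beside 0.018 over all genes, and all 18 rose without day 6 replicate 2, with a median of 1.02. Their summed intensity was 38143, 37992 and 38276 on the day 3 arrays and 68423, 49754 and 67984 on the day 6 arrays. Day 6 replicate 2 thus lay between the groups, above every day 3 array. Perinatal myosin heavy chain, Myh8, measured 10.54, 10.39 and 10.64 at day 3 and 12.16, 11.50 and 12.10 at day 6. The groups did not overlap, and Myh8 was 2.63-fold higher at day 6 (1.40 ± 0.17 on the log2 scale, SE, limma adjusted p = 0.00117; 1.61 without replicate 2). Control muscle averaged 7.88, below every day 3 and day 6 array. Embryonic myosin, Myh3, was at 11.25, 11.18 and 11.33 at day 3 and 12.11, 11.65 and 12.11 at day 6, a rise of 0.70 ± 0.12 (limma adjusted p = 0.00474).

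Slow and cardiac-type thick-filament genes also rose. The ventricular light chain Myl2 was at 7.48, 7.53 and 6.18 at day 3 and 8.61, 8.01 and 8.59 at day 6 (rise of 1.34 ± 0.28), with day 3 replicate 3 the lowest array and no overlap. The embryonic-type light chain Myl6b rose by 1.29 ± 0.23 and the slow myosin Myh7 by 0.97 ± 0.18. Among thin-filament regulators, the slow troponins Tnnt1, Tnni1 and Tnnc1 rose by 1.02, 0.81 and 0.75, and cardiac Tnnt2 by 0.58. Genes of the Z-disc and stretch response rose as well. Xirp1, an actin-binding protein of growing myofibrils, measured 9.08, 9.10 and 9.14 at day 3 and 10.80, 10.02 and 10.68 at day 6 (rise of 1.39 ± 0.16, limma adjusted p = 0.000647), without overlap. Its level at day 0 was 9.05, 9.33 and 9.26, and the day 3 minus day 0 difference of -0.10 was not called (adjusted p = 0.703). Csrp3, a Z-disc sensor of stretch, rose by 1.22 ± 0.14. The one member not called was the atrial myosin Myh6, at 0.25 ± 0.10 (limma adjusted p = 0.155), with levels of 6.21 to 6.67 on the 6 arrays and 0.39 without day 6 replicate 2 (adjusted p = 0.00113). The count of 17 became 12 without day 6 replicate 1 or replicate 3, 15 without day 3 replicate 1 or 2, and 1 in the fit of 6 arrays, where the gene called was Myh8.

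**Figure D2:**
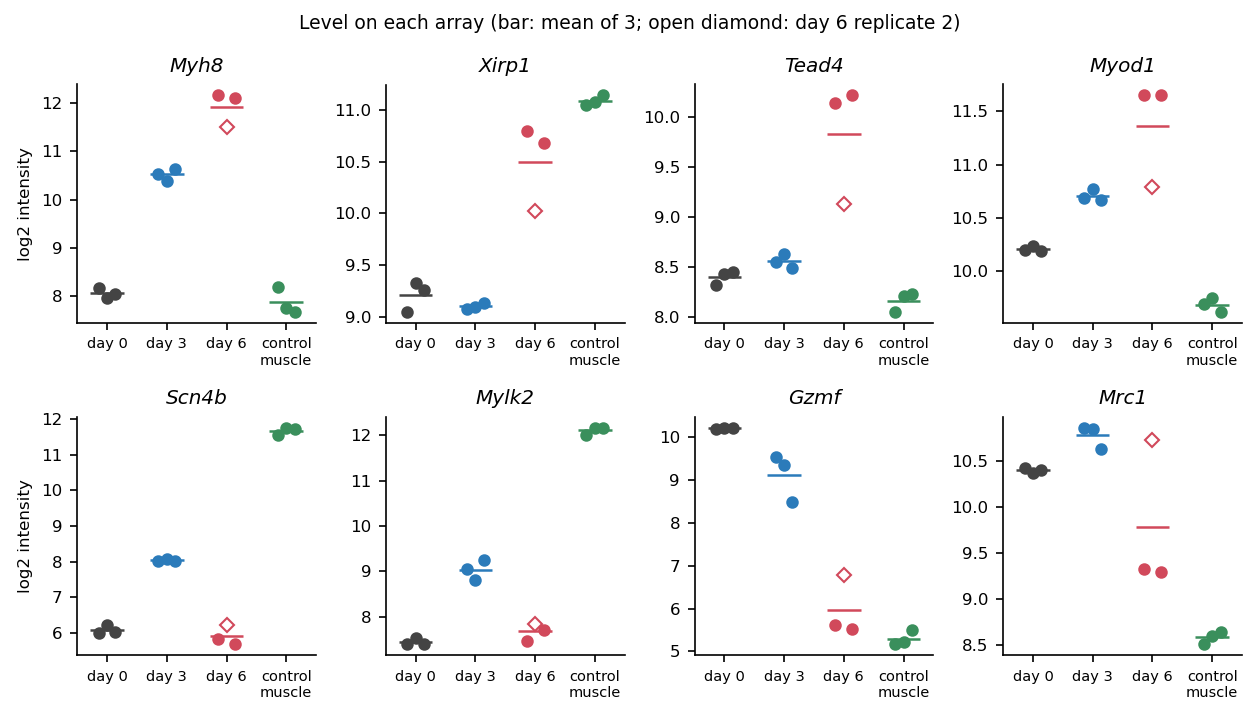
Log2 intensity of 8 genes on each array at day 0, day 3, day 6 and in control muscle; circles are arrays, bars are means of 3, and the open diamond is day 6 replicate 2. Myh8, Xirp1 and Tead4 lie higher on all 3 day 6 arrays than at day 3, Scn4b and Mylk2 drop back to near the day 0 level, and the diamond lies within the day 3 range for Mrc1 and close to it for Myod1.

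Because YAP1 acts through TEAD factors, the 250 bases before the first listed start of each gene were searched for the TEAD core called MCAT, CATTCC, on both strands (GGAATG on the printed strand). It was held by 7 of the 17 embryonic and cardiac-type sarcomere genes with a promoter in the RefSeq table (41.2%) and by 6 of 16 adult fast genes (37.5%), beside 12.6% of all 27025 promoters in the table. Across genes it did not separate the directions: 11.7% of the genes called higher held it, 11.2% of those called lower and 11.3% of the 15613 tested genes with a promoter. The E-box CAGCTG, a palindrome that MyoD-family factors can bind, was in 3 of the 17 and in 7 of the 16, beside 12.8% of all promoters. TATAAA, the TATA box, was in 4 of each and in 13% of all promoters. These matches are descriptions of the letters and no evidence of binding. The 4 holders with the largest rises on the first list are printed here with 1 adult fast gene that held the motif and fell, from RefSeq on build GRCm38.p6, written 5′ to 3′ on the gene's strand, with the motif in capitals. Myh7 lies at chr14:54994627-54994876 on the minus strand, Ankrd1 at chr19:36119845-36120094 (minus), Mybph at chr1:134193198-134193447 (plus), Tnnc1 at chr14:31208062-31208311 (plus) and Mybpc2 at chr7:44524670-44524919 (minus).
Myh7: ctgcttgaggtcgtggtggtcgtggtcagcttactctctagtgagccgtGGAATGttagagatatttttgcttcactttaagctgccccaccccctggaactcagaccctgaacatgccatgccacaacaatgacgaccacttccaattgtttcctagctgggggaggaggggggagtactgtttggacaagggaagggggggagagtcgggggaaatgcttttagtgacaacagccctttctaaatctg
Ankrd1: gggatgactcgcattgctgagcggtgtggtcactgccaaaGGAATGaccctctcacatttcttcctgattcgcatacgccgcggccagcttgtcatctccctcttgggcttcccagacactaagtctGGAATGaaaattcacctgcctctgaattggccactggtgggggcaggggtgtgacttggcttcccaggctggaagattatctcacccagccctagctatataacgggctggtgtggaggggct
Mybph: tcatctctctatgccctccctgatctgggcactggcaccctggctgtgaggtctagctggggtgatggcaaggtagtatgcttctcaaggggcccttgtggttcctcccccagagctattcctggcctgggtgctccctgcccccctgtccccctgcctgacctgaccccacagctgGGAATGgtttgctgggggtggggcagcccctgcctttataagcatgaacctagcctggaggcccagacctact
Tnnc1: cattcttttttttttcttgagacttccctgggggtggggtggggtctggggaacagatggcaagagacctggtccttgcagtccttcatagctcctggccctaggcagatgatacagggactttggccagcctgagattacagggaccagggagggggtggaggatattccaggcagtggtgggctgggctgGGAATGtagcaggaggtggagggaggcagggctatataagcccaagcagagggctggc
Mybpc2: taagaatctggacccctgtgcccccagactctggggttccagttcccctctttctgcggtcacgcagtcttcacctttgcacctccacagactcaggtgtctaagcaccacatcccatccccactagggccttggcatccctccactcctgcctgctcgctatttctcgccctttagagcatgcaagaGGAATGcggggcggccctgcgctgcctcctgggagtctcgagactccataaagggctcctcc
Ankrd1, a muscle ankyrin repeat protein and a common readout of YAP1, held 2 copies. It was at 10.47, 10.23 and 10.26 at day 3 and at 11.50, 10.74 and 11.48 at day 6, a rise of 0.92 ± 0.16 (limma adjusted p = 0.00639) without overlap. Mybph, a myosin-binding protein of immature fibres, rose by 0.91 ± 0.14. Mybpc2, the fast-fibre myosin-binding protein C, was at 10.95, 11.09 and 11.56 at day 3 and fell to 10.15, 10.51 and 10 (-0.98 ± 0.15, limma adjusted p = 0.00349).

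Of 14 myogenic transcription factors, 7 rose and 1 fell (median 0.21), against 8 and 1 without day 6 replicate 2. Tead4, the TEAD family member that MyoD induces in differentiating myoblasts, was at 8.55, 8.63 and 8.49 at day 3 and 10.14, 9.13 and 10.22 at day 6. The groups were separate, and the rise was 1.27 ± 0.21 (2.41-fold, limma adjusted p = 0.00469); the day 3 minus day 0 difference of 0.16 was not called (adjusted p = 0.664). Myod1, the determination factor, stood at 10.69, 10.77 and 10.67 and then at 11.65, 10.79 and 11.65, so replicate 2 exceeded the highest day 3 array by a small margin. Its rise of 0.65 ± 0.17 passed (limma adjusted p = 0.0339; 0.94 without replicate 2), but not when any single other array of the 6 was left out (adjusted p from 0.071 to 0.164). Mef2c and Myf6, factors of terminal differentiation, rose by 0.74 ± 0.10 and 0.73 ± 0.11, and Smyd1, a muscle methyltransferase needed for sarcomere assembly, by 0.67 ± 0.16. Myogenin itself, Myog, had a difference of 0.20 ± 0.14 that was not called (limma adjusted p = 0.416). The progenitor factors Myf5 and Pax7 differed by -0.10 ± 0.08 and -0.26 ± 0.08 (adjusted p = 0.545 and 0.0642), and Eya1, a cofactor of early myogenesis, fell by 0.26. The count of 7 was 3 without day 3 replicate 1, day 3 replicate 2, day 6 replicate 1 or day 6 replicate 3.

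Fusion genes showed the same leaning: 5 of 12 rose and 1 fell (median 0.39), and 10 rose and 1 fell without day 6 replicate 2. Cav3, the muscle caveolin, was at 8.18, 8.23 and 8.20 at day 3 and at 9.61, 8.79 and 9.49 at day 6, a rise of 1.09 ± 0.17 without overlap. Mymx (myomixer), which completes membrane fusion, rose by 0.52 ± 0.10, whereas its partner Mymk (myomaker) differed by 0.44 ± 0.15 with an overlapping replicate 2 at 12.03 (limma adjusted p = 0.0799; 0.66 and 0.000152 without that array). Kirrel, a relative of the fly fusion receptors, fell by 0.45 ± 0.08. The number that rose was 1 without day 6 replicate 1 or 3, 2 without day 3 replicate 2 and 3 without day 3 replicate 1 or 3. Of the satellite cell surface genes, 1 of 18 rose and 5 fell (1 fell without day 3 replicate 1 or day 6 replicate 1 or 3, and 3 without day 3 replicate 2). Megf10, an engulfment receptor of satellite cells, rose from 8.31, 8.4 and 8.03 to 9.69, 8.82 and 9.78 (1.18 ± 0.20), and Cxcr4, a chemokine receptor guiding progenitor migration, fell by 0.92 ± 0.16.

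Of 14 genes of the neuromuscular synapse 8 rose and none fell (median 0.36), and 10 rose without day 6 replicate 2. Among them were the receptor subunit Chrnd and the embryonic subunit Chrng, the latter largely shut off in adult innervated muscle. Chrnd measured 9.97, 10.11 and 9.95 at day 3 and 11.14, 10.33 and 11.22 at day 6, against a control muscle mean of 7.38, and rose by 0.89 ± 0.18 (limma adjusted p = 0.0122; 0.0641 and 0.0659 without day 6 replicate 1 or 3). Chrng, at 10.08, 10.14 and 10.08 and then at 11.06, 10.47 and 11.18, rose by 0.80 ± 0.15, while the adult subunit Chrne differed by 0.13 ± 0.11 (limma adjusted p = 0.557). Musk and Dok7, the kinase and adaptor that cluster receptors, rose by 0.79 and 0.70. Colq, the collagen tail that anchors acetylcholinesterase, was at 8.09, 8.15 and 8.23 at day 3 and 9.04, 8.84 and 9.04 at day 6 (0.82 ± 0.07, limma adjusted p = 9.04e-05; adjusted p = 0.0191 in the fit of 6 arrays). The count of 8 was 7 or 5 without a day 3 array and 2 without day 6 replicate 1 or 3.

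Excitation-contraction coupling genes split: of 18, 7 rose and 2 fell (median 0.33), and 12 and 3 without day 6 replicate 2. The calcium channel subunits Cacnb1 and Cacna1s rose by 1.01 ± 0.18 and 0.76 ± 0.16, and Casq2, the cardiac and slow-type calcium store protein, by 0.92 ± 0.15. The 2 that fell were Pvalb and Clcn1. Control muscle exceeded day 0 tumour by 3.22 for Pvalb, and by 3.47 and 2.26 for the rising Cacna1s and Cacnb1. Pvalb, parvalbumin, the calcium buffer of fast fibres, was at 11.63, 11.53 and 12.30 at day 3 and at 9.35, 11.25 and 9.34 at day 6. Replicate 2 lay 0.28 below the lowest day 3 array while the other day 6 arrays lay far below it. The difference was -1.84 ± 0.40 (limma adjusted p = 0.0147; -2.48 and 1.72e-06 without replicate 2; 0.0733 and 0.0792 without day 6 replicate 1 or 3). Clcn1, the chloride channel of mature fibres, fell by 0.52 ± 0.14. The rising count varied from 2 (without day 3 replicate 1 or day 6 replicate 1 or 3) to 10 (without day 3 replicate 3), and the falling count was 0 without day 6 replicate 1 or 3 and 1 without day 3 replicate 3.

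**Figure D3:**
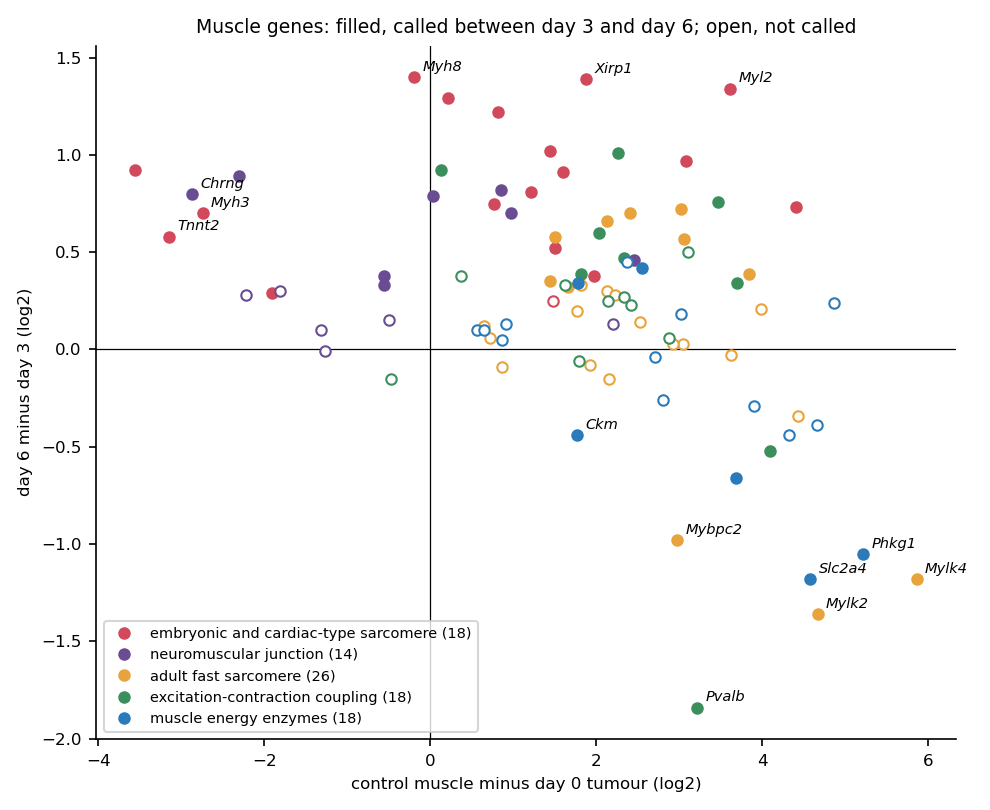
Each point is a gene of 5 muscle lists: the horizontal axis is control muscle minus day 0 tumour and the vertical axis day 6 minus day 3, both as log2 differences of group means of 3 arrays; filled points were called between day 3 and day 6. Embryonic and cardiac-type sarcomere genes lie above 0 whichever side of the horizontal zero they are on, and the deepest falls (Pvalb, Mylk2, Slc2a4, Mylk4 and Phkg1) are genes far higher in control muscle.

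The adult fast sarcomere list was mixed, with 8 of 26 risen, 3 fallen and a median of 0.17. Its summed intensity was 72897, 69566 and 93410 at day 3 and 89142, 82325 and 89242 at day 6, so day 3 replicate 3 was the highest of the 6 arrays. Without that array 13 rose, and without day 6 replicate 1 or 3, or day 3 replicate 2, 3 rose. Ldb3, a Z-disc scaffold, and Mybpc1, the slow-type myosin-binding protein C, led the rises at 0.72 ± 0.13 and 0.70 ± 0.10, and the myosin Myh2 of fast oxidative fibres rose by 0.58 ± 0.12. With Mybpc1 on it, the list is not confined to genes of fast fibres. Myh4, the myosin of the fastest fibres, did not differ detectably: it was at 11.99, 11.81 and 12.42 at day 3 and 11.93, 11.89 and 11.95 at day 6 (-0.15 ± 0.12, limma adjusted p = 0.506). The 3 that fell were called whichever of the 6 arrays was left out. Mylk2, the kinase of the fast regulatory light chain, went from 9.04, 8.81 and 9.25 to 7.47, 7.84 and 7.70 (-1.36 ± 0.11, limma adjusted p = 9.04e-05), and its relative Mylk4 from 9.20, 9.16 and 9.87 to 8.22, 8.17 and 8.30 (-1.18 ± 0.14). Mybpc2, given with its promoter above, was the other.

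Several of the falling genes had risen in the first 3 days, and for most of those named here no difference between day 6 and day 0 was called. The comparisons with day 0 share arrays with the day 6 minus day 3 comparison, so the values are given side by side. Scn4b, the beta-4 sodium channel subunit, was at 5.99, 6.22 and 6.01 at day 0, at 8.01, 8.07 and 8.01 at day 3 and at 5.82, 6.22 and 5.68 at day 6. It was 1.95 higher at day 3 than at day 0, then fell by 2.12 ± 0.12 (4.35-fold, limma adjusted p = 8.5e-06), and day 6 minus day 0 was -0.17 ± 0.12 (adjusted p = 0.327). Control muscle exceeded day 0 by 5.6. Mylk2 had the same course, with day 6 minus day 0 at 0.23 ± 0.11 (adjusted p = 0.153). So had Tuba8, a tubulin of muscle and brain (1.21 up, then -1.38 ± 0.13), Mlf1, myeloid leukaemia factor 1 (1.42, then -1.41 ± 0.21), Rpl3l, the striated-muscle ribosomal protein (1.38, then -1.29 ± 0.22), and the sialyltransferase St8sia5 (1.11, then -1.04 ± 0.09). For Mybpc2 and Pvalb, too, the day 6 minus day 0 difference was not called, at 0.03 ± 0.15 and 0.10 ± 0.40 (adjusted p = 0.896 and 0.869). Mylk4 and Slc2a4 were still above day 0 at day 6, by 1.79 ± 0.14 and 0.62 ± 0.12 (limma adjusted p = 1.26e-06 and 0.00136).

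Energy enzymes of muscle moved in both directions: 2 of 18 rose and 4 fell (median 0.01). Slc2a4, the insulin-regulated glucose transporter GLUT4, was at 9.15, 9.06 and 9.50 at day 3 and 7.89, 8.27 and 8.0 at day 6, a fall of 1.18 ± 0.12 (limma adjusted p = 0.000265). Phkg1 and Phka1, subunits of the kinase that activates glycogen breakdown, fell by 1.05 ± 0.20 and 0.66 ± 0.15. Ckm, muscle creatine kinase, fell from 12.49, 12.46 and 12.85 to 12.08, 12.27 and 12.14 (-0.44 ± 0.10, limma adjusted p = 0.016; 0.08 and 0.0753 without day 6 replicate 1 or 3). Pfkm, muscle phosphofructokinase, and Mb, myoglobin, rose by 0.42 and 0.34. Without day 6 replicate 1 or 3 no member rose and 2 fell, and without replicate 2 5 rose and 5 fell. In the denervation and wasting list, where 5 of 13 rose and 2 fell, the ubiquitin ligases parted: Trim63 (MuRF1) rose by 0.65 ± 0.11 and Fbxo32 (atrogin-1) fell by 0.89 ± 0.10, while Mstn, myostatin, the brake on muscle growth, fell by 0.82 ± 0.18. Mstn was not called without day 6 replicate 1 or 3 (adjusted p = 0.08 and 0.0869), which left 1 fall, and those settings left 3 and 2 rises. Of 25 oxidative phosphorylation genes 4 rose and none fell (median 0.09), and 8 rose without replicate 2. Without day 3 replicate 1 or 2 the count was 1 or 2, and without day 6 replicate 1 or 3 it was 0.

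Genes were then grouped by the contrast of control muscle and day 0 tumour, which shares no arrays with day 6 minus day 3. Both contrasts used the same estimate of spread per gene, so the calls are not independent. Of 9161 genes higher in control muscle than in tumour (45.9% of all), 7.06% rose and 2.46% fell from day 3 to day 6. Of 6038 genes lower in control muscle (30.3%), 5.42% rose and 8.78% fell. Of the 4738 genes called neither way, 4.9% rose and 2.51% fell. At 4-fold or more the muscle-high class of 576 genes moved both ways, 126 rising (21.9%) and 75 falling (13%), with a median difference of 0.02. The tumour-high class of 942 genes had 50 rising (5.31%) and 137 falling (14.5%), and without day 6 replicate 2 102 and 341 (10.8% and 36.2%). The shares depended on single arrays, with the classes called anew each time 1 array was left out. Of the genes lower in control muscle, 24.7% fell and 12.4% rose without day 6 replicate 2, 2.25% and 3.46% without day 3 replicate 1, 2.83% and 2.75% without day 3 replicate 2, 12.2% and 3.51% without day 3 replicate 3, 1.43% and 1.48% without day 6 replicate 1, and 1.17% each without day 6 replicate 3. Of the genes higher in control muscle, more rose than fell in each of these settings, with 2.12% to 13.2% rising and 0.578% to 6.79% falling.

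The granzyme cluster on chromosome 14 held the 3 largest falls of the comparison. Of 10 granzyme and perforin genes 4 fell and none rose (median -0.61), and 7 fell without day 6 replicate 2 (median -0.78). Gzmf, a serine protease of cytotoxic granules, was at 9.55, 9.36 and 8.48 at day 3 and at 5.61, 6.78 and 5.53 at day 6, with no overlap: it was 8.89-fold lower (-3.15 ± 0.31, limma adjusted p = 0.000256). Gzmd went from 9.73, 9.41 and 8.55 to 6.26, 6.70 and 6.56 (-2.72 ± 0.25) and Gzmg from 9.53, 9.34 and 8.31 to 6.62, 7.07 and 6.68 (-2.27 ± 0.25). Day 3 replicate 3 was the lowest day 3 array for all 3, and day 6 replicate 2 the highest day 6 array. Gzme fell by 1.05 ± 0.26 (limma adjusted p = 0.0263; 0.0656 to 0.102 without any one of day 3 replicates 1 and 2 and day 6 replicates 1 and 3). Without day 3 replicate 3, 7 members fell. Gzmd, Gzme, Gzmf and Gzmg are near-identical neighbours whose probe sets may share transcripts, so their separate values are uncertain.

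The best-known killer-cell genes were not called. Gzmb, which lies in the same cluster, was at 8.04, 7.99 and 7.19 at day 3 and 7.63, 8.20 and 7.79 at day 6 (0.13 ± 0.20, limma adjusted p = 0.778), with overlapping groups. Gzma and the pore-former Prf1 differed by -0.50 ± 0.16 and -0.25 ± 0.12 (adjusted p = 0.0743 and 0.232), and passed without day 6 replicate 2 at -0.70 and -0.36. Of 18 T, NK and B lymphocyte markers none passed with 3 day 6 arrays and 6 fell without replicate 2 and 3 without day 3 replicate 3. The T-cell receptor component Cd3e lay at 5.96 to 6.39 on the 6 arrays, against 6.62 in control muscle. The part of any cell type in the granzyme fall was not tested. The 3 promoters of the genes that fell farthest are shown because these genes moved together. They lie on the minus strand of chromosome 14 in build GRCm38.p6 (RefSeq), Gzmd at chr14:56132594-56132843, Gzmf at chr14:56211408-56211657 and Gzmg at chr14:56159580-56159829. Capitals mark the longest run that all 3 share, 36 bases.
Gzmd: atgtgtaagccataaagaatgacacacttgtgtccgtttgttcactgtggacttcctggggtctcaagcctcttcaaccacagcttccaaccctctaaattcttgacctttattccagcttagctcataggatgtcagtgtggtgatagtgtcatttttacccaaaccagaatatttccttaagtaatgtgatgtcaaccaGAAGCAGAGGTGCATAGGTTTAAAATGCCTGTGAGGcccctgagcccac
Gzmf: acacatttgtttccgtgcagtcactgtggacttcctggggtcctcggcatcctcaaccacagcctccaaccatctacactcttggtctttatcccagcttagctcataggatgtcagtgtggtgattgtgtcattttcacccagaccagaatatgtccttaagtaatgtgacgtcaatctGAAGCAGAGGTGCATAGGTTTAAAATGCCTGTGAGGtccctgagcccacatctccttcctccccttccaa
Gzmg: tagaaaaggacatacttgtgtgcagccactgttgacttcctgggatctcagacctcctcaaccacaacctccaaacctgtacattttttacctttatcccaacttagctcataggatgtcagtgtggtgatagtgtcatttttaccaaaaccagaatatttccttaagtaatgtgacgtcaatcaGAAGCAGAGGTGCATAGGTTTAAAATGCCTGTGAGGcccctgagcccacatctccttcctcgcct
In global alignments the 250-base windows were identical at 74.5% of columns between Gzmd and Gzmf, 78.6% between Gzmd and Gzmg and 82.4% between Gzmf and Gzmg. Gap columns, end gaps included, counted as not identical. The shared run lies nearer the window's end in Gzmd, and such a shift between windows lowers these shares. None of the 3 windows held the MCAT core, the E-box or TATAAA as spelled above.

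Macrophage markers as a sum were lower on 2 of the 3 day 6 arrays. Of 24 markers 7 fell and none rose (median -0.30), and 19 fell without day 6 replicate 2 (median -0.50), beside 4.38% and 12.4% of all genes. Their summed intensity was 49442, 47796 and 46869 at day 3 and 33630, 48248 and 34201 at day 6, so that replicate 2 lay inside the day 3 range and replicates 1 and 3 well below it. Mrc1, the mannose receptor CD206 of tissue-type macrophages, was at 10.86, 10.85 and 10.63 at day 3 and 9.33, 10.73 and 9.29 at day 6. The groups overlapped through replicate 2, and the difference was -1.0 ± 0.28 (limma adjusted p = 0.0417; -1.47 and 2.91e-07 without it). Csf1r, the receptor for the macrophage growth factor, measured 11.66, 11.64 and 11.47 and then 10.70, 11.41 and 10.67 (-0.66 ± 0.15, limma adjusted p = 0.019). Mertk, a receptor for apoptotic cells, Fcgr3, an antibody receptor, and Gpnmb, of lipid-laden macrophages, fell by 0.83, 0.73 and 0.72. The pan-macrophage markers Cd68 and Adgre1 differed by -0.32 ± 0.10 and -0.31 ± 0.16 (adjusted p = 0.056 and 0.274), and the complement component C1qb by -0.09 ± 0.08. The falling count was 1 without day 3 replicate 1, day 3 replicate 2 or day 6 replicate 1, and 0 without day 6 replicate 3, and Mrc1 passed in none of the settings that left out 1 array other than replicate 2 (adjusted p from 0.0587 to 0.193).

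The macrophage chemokine Ccl8 showed the same split. It was at 11.14, 11.09 and 10.96 at day 3 and at 8.97, 10.84 and 9.07 at day 6, a difference of -1.44 ± 0.36 (limma adjusted p = 0.0259) that was -2.05 without replicate 2 (6.63e-08) and did not pass without day 3 replicate 1 or 2 or day 6 replicate 1 or 3 (0.0774 to 0.13). Slc40a1, ferroportin, the iron exporter of macrophages and other cells, was lower on all 3 arrays, with 8.36, 8.28 and 8.0 at day 3 and 6.39, 7.27 and 6.54 at day 6 (-1.48 ± 0.18, limma adjusted p = 0.00117). Of the genes called when replicate 2 was left out but not with it, Cd209f, a lectin of tissue-resident macrophages, was at 7.93, 8.05 and 7.13 at day 3 and 5.74, 8.76 and 5.32 at day 6. The factor XIII subunit F13a1 (9.31, 9.36 and 9.08, then 7.71, 9.45 and 7.47), the carbonyl reductase Cbr2 (9.80, 9.76 and 9.55, then 8.01, 10.07 and 8.19) and the lectin receptor Clec4n behaved alike, with replicate 2 at or above every day 3 array. Mmp13, a collagenase, lay at 7.11, 8.57 and 7.16 at day 6, with replicate 2 within the day 3 range of 8.33 to 8.78. Rises of this kind included Anxa11, an annexin, at 11.24, 11.27 and 10.99 and then 12.13, 11.13 and 12.10, and the transcription factor Tbx1 and the protease inhibitor Cst6, 0.95 and 0.93 higher without replicate 2. Chad, a cartilage matrix protein, was at 8.42, 8.45 and 7.45 at day 3 and at 8.95, 7.04 and 8.99 at day 6, so replicate 2 was the lowest of the 6 arrays.

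**Figure D4:**
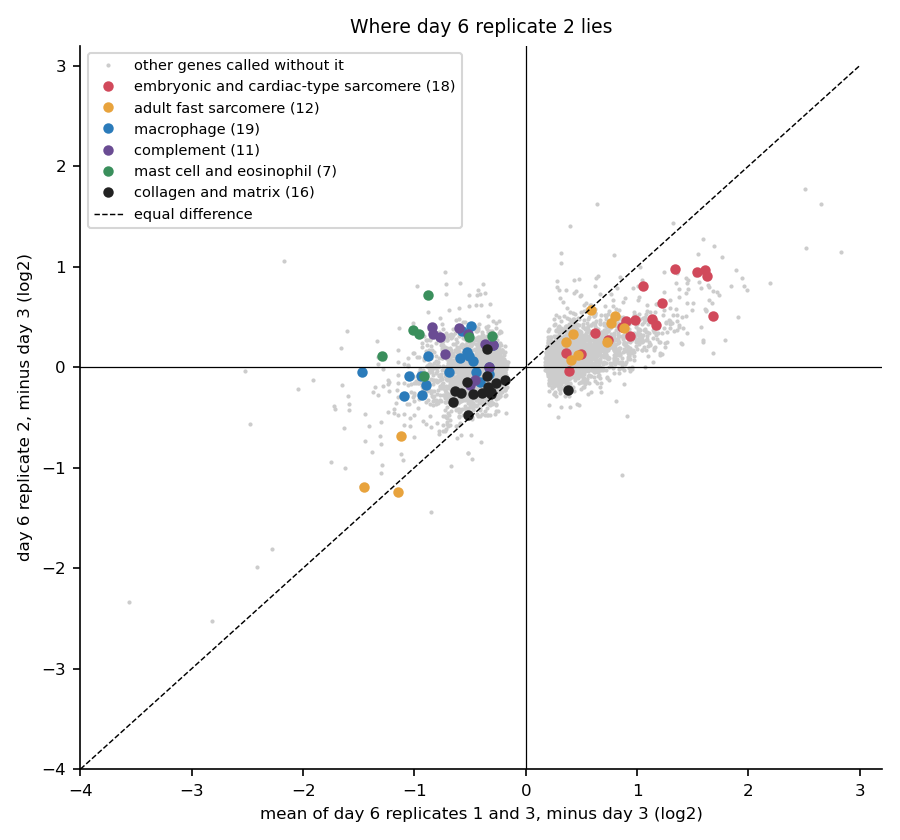
For each of 4874 genes called without day 6 replicate 2, the horizontal axis is the mean of day 6 replicates 1 and 3 minus the day 3 mean and the vertical axis is replicate 2 minus the day 3 mean (log2); points on the dashed line would differ equally. Most embryonic and cardiac-type sarcomere genes lie between the line and 0, whereas macrophage, complement and mast cell genes lie around or above 0 on the vertical axis.

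Day 6 replicate 2 had not moved by the same amount in every gene group. Over the 4874 genes its difference from the day 3 mean was a median 0.24 of that of replicates 1 and 3, and 74.2% of the genes lay on the same side of the day 3 mean. The 169 genes that were at least 2-fold higher all lay on the same side, with a median share of 0.359, while of the 89 that were at least 2-fold lower 71 did, with a median of 0.196. By list the median share was 0.626 for the 12 adult fast sarcomere genes concerned, 0.58 for 16 collagen and matrix genes, 0.471 for 18 embryonic and cardiac-type sarcomere genes and 0.404 for 13 endothelial genes. It was 0.116 for 11 fusion genes, 0.033 for 19 macrophage markers, -0.142 for 13 fibroblast markers, -0.366 for 7 mast cell genes and -0.392 for 11 complement genes. A share below 0 means that replicate 2 lay on the opposite side of day 3 from its group. The genes were chosen by the fit without this array, so the shares are a description, and the reason for them was not tested.

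Other immune lists also changed with the inclusion of replicate 2. Over all genes, 4.38% fell with 3 day 6 arrays and 12.4% fell without replicate 2. Of 14 dendritic cell and MHC class II genes 3 fell and none rose, led by Ciita, the master regulator of class II genes, at -0.65, and 8 fell and 1 rose without replicate 2. Complement genes had 1 of 15 fallen (C3ar1, the C3a receptor, -0.40 ± 0.11) and 11 without replicate 2. None of 11 mast cell and eosinophil genes passed with 3 day 6 arrays and 7 fell without replicate 2. The mast cell protease Cpa3 was at 10.81, 10.63 and 11.27 at day 3 and 9.56, 11.01 and 9.68 at day 6. Of 17 lysosome and phagocytosis genes 6 fell and none rose, among them Npc1, the cholesterol exporter of lysosomes, at -0.31 and Lamp1, a lysosomal membrane protein, at -0.22. None of 13 neutrophil markers passed, with a median of 0.03. With 1 array other than replicate 2 left out, 0 to 5 class II genes, 0 to 2 complement genes and 0 to 6 lysosome genes fell, and day 3 replicate 3 was the array whose removal gave the highest number in each.

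Inflammatory ligands moved both ways. Of 29 chemokine and cytokine genes 6 rose and 2 fell (median 0.03). Ccl2, a recruiter of monocytes, rose from 9.75, 9.57 and 9.66 to 10.12, 10.28 and 10.37 (0.60 ± 0.09, limma adjusted p = 0.00322), and here replicate 2 lay with its group. Cxcl13, a B-cell attractant, measured 9.59, 9.58 and 9.93 and then 10.10, 11.09 and 10.11, with replicate 2 the highest array (0.73 ± 0.22, limma adjusted p = 0.0496; 0.40 without it). Cxcl12, the ligand of Cxcr4, fell by 0.46 ± 0.10. Of 21 interferon response genes 3 rose and none fell: the chemokine Cxcl9 by 0.68 ± 0.10, the ISG15-removing protease Usp18 by 0.50 ± 0.08 and the antiviral GTPase Mx2 by 0.45 ± 0.11. Mx2 was not called without day 3 replicate 2 or 3 or day 6 replicate 1 or 3 (limma adjusted p from 0.0673 to 0.123). The rising chemokine count was 4 without day 3 replicate 1 or 3, 2 without day 3 replicate 2 or day 6 replicate 1 and 1 without day 6 replicate 3, and 8 chemokines fell without day 6 replicate 2.

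Of 23 fibrillar collagen and matrix genes 10 fell and none rose (median -0.26), and 15 fell and 1 rose without day 6 replicate 2. Their summed intensity was 67321, 65094 and 62293 at day 3 and 54773, 58226 and 52973 at day 6, without overlap. Collagen VI, the microfibril of muscle matrix, led: Col6a1 was at 11.29, 11.25 and 11.05 and fell to 10.69, 10.85 and 10.42 (-0.55 ± 0.10, limma adjusted p = 0.0071), Col6a3 fell by 0.51 and Col6a2 by 0.47. The main fibrillar collagen Col1a1 went from 12.69, 12.73 and 12.62 to 12.26, 12.41 and 12.16 (-0.40 ± 0.07, limma adjusted p = 0.00762). Its day 6 level was 0.07 ± 0.07 from day 0 (adjusted p = 0.503) and 1.55 above control muscle. The crosslinking enzyme Lox and the matricellular Postn differed by -0.19 and -0.22 and were not called. Leaving out day 3 replicate 2, day 6 replicate 1 or day 6 replicate 3 left 4 falling members, leaving out day 3 replicate 1 left 5, and leaving out day 3 replicate 3 raised the count to 15. Of 20 fibroblast markers 3 fell and 1 rose, and 12 and 1 without replicate 2, whose summed intensity of 36633 was above the day 3 range of 34226 to 35409, while replicates 1 and 3 were at 27550 and 27528. No fibroblast marker fell without day 3 replicate 1 or day 6 replicate 1 or 3, and 1 fell without day 3 replicate 2.

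Of 20 endothelial marker genes 8 fell, none rose and 12 were not called (median -0.26), and 13 fell without day 6 replicate 2. Their summed intensity was 12403, 12355 and 11363 at day 3 and 8925, 10585 and 8921 at day 6. Cdh5, the adhesion molecule of endothelial junctions, was at 10.61, 10.58 and 10.47 at day 3 and 9.97, 10.13 and 9.94 at day 6, a fall of 0.54 ± 0.07 (limma adjusted p = 0.00117) to a level that was not called different from day 0 (-0.04 ± 0.07). Aplnr, the apelin receptor of sprouting vessels, and Cd93, a receptor of activated endothelium, fell by 0.68 ± 0.12 and 0.67 ± 0.12. The VEGF receptor Kdr differed by -0.11 ± 0.08 (limma adjusted p = 0.474). Without day 3 replicate 1, day 3 replicate 2, day 6 replicate 1 or day 6 replicate 3, 4 members fell. Pericyte and smooth muscle genes split at 1 rise (7.14%) and 3 falls (21.4%) of 14, beside 6.05% and 4.38% of all genes. The arterial and pericyte receptor Notch3 was at -0.63 ± 0.10, and 1 member fell without day 3 replicate 1 or day 6 replicate 1 or 3.

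Few proliferation genes were called in the second interval. None of 25 mitosis genes passed in limma's test (median 0.08), where 10.4% of all genes did, and 1 passed without day 6 replicate 2 (higher) or day 3 replicate 3 (lower). Mki67, the marker of cycling cells, was at 8.57, 8.61 and 8.30 at day 3 and 8.54, 8.08 and 8.51 at day 6 (-0.12 ± 0.12, limma adjusted p = 0.608; 0.03 without replicate 2), with overlapping groups, and Top2a differed by 0.03 ± 0.22. The day 3 arrays varied more than the difference: Bub1, a spindle checkpoint kinase, was at 7.19, 6.72 and 5.89. Of 28 DNA replication genes 1 rose (3.57%), the S-phase cyclin Ccne1 (0.45 ± 0.12, limma adjusted p = 0.0374). Of 13 G1 cyclins and CDK inhibitors 1 rose (7.69%), the inhibitor Cdkn2d (0.43 ± 0.11, limma adjusted p = 0.0336). Over all genes 6.05% rose. Neither list had a rise when any 1 array other than day 6 replicate 2 was left out. Without replicate 2 the lists had 2 and 3 rises and 3 falls each, and 4 DNA replication genes fell without day 3 replicate 3. The cyclin Ccnd1 differed by -0.05 ± 0.09 (limma adjusted p = 0.822). Mki67 averaged 6.46 in control muscle. The p53 and apoptosis list had 3 rises and 2 falls of 15, with the death-inducing Bcl2l11 at -0.86. It had 1 rise without day 3 replicate 1 or day 6 replicate 1 or 3, and 4 falls without day 3 replicate 3 or day 6 replicate 2.

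YAP and TEAD targets moved in both directions. Of 25 targets 4 rose (16%) and 3 fell (12%), with a median of 0.05, beside 6.05% and 4.38% of all genes. Without day 6 replicate 2, 7 rose and 5 fell, beside 12% and 12.4% of all genes. Endogenous Yap1 lay at 9.52, 9.61 and 9.59 and then 9.68, 9.50 and 9.65 (0.04 ± 0.07, limma adjusted p = 0.808), and its mouse probes may not read the human transgene. Ccn1 differed by 0.17 ± 0.07 (adjusted p = 0.141), and Ccn2 rose from 11.28, 11.16 and 11 to 11.43, 11.55 and 11.44 (0.33 ± 0.07, limma adjusted p = 0.0167; 0.0516 to 0.0633 without day 3 replicate 2 or day 6 replicate 1 or 3). Both encode secreted matrix-associated proteins that YAP1 induces. Ankrd1, described with its promoter, and Dock5, a Rac activator that rose by 0.75 ± 0.18, were the largest rises. The receptor kinase Axl, the BMP-binding Crim1 and tissue factor F3 fell by 0.30, 0.53 and 0.65. The rising count was 2 without day 3 replicate 2 and 1 without day 6 replicate 1 or 3. No target fell without day 3 replicate 1 or day 6 replicate 1 or 3, and 1 fell without day 3 replicate 2.

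Growth and patterning pathways changed at single members. The growth factor Igf2 rose from 12.04, 12.07 and 12.07 to 12.63, 12.35 and 12.60 (0.47 ± 0.07, limma adjusted p = 0.00395). Other fetal growth genes fell: Mest, an imprinted gene, by 0.70 ± 0.13 and Hmga2, a chromatin protein of embryonic cells, by 0.44 ± 0.06. Of 15 Notch pathway genes 3 fell and none rose, Notch3, Notch2 (-0.56 ± 0.10) and the ligand Dll1 (-0.49 ± 0.10), and 5 fell without day 3 replicate 3 or day 6 replicate 2. Dll1 was not called without day 3 replicate 1 or 2 or day 6 replicate 1 or 3 (limma adjusted p from 0.053 to 0.0638). Rspo3, a secreted amplifier of Wnt signals, was the one rise among 16 Wnt antagonist and response genes, from 7.32, 7.40 and 7.46 to 8.50, 8.27 and 8.37 (0.98 ± 0.10; limma adjusted p = 0.000256, and 0.0171 in the fit of 6 arrays). Further lists had rises and no fall: cholesterol synthesis 4 of 14, led by Dhcr7 (0.88 ± 0.20) and Fdps (0.60 ± 0.14), amino acid and unfolded protein stress 5 of 18, with asparagine synthetase Asns at 0.68 ± 0.17, and immediate early genes 4 of 15, with Egr3 at 0.78 ± 0.16. The cholesterol count was 0 without day 3 replicate 3 or day 6 replicate 1 or 3, and 2 without day 3 replicate 1. The stress count was 1 without any of those 3 arrays and 2 or 3 without day 3 replicate 2 or 1, and the immediate early count was 2 without day 6 replicate 1 or 3. Osteoclast-type genes fell at 2 of 16, Atp6v0d2, a proton pump subunit, by 1.11 ± 0.15 and Mmp9, a gelatinase, by 0.77 ± 0.23 (limma adjusted p = 0.0499, with overlapping groups). Mmp9 was not called without day 3 replicate 1 or 2 or day 6 replicate 1 or 3 (0.15 to 0.222), which left 1 fall, and 3 fell without day 3 replicate 3 and 5 without day 6 replicate 2.

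The largest rises were outside the muscle lists. Tcp11x2 led with 6.21, 5.56 and 6.59 at day 3 and 8.68, 7.74 and 8.86 at day 6 (4.95-fold; 2.31 ± 0.27, limma adjusted p = 0.000885). Hephl1, a copper ferroxidase, was near the bottom of the scale at day 3 (5.10, 5.10 and 5.02) and at 7.90, 6.23 and 7.91 at day 6 (2.27 ± 0.33). Atp1b4, a muscle protein related to sodium pump beta subunits, rose from 6.57, 6.31 and 6.34 to 8.87, 8.18 and 8.95 (2.26 ± 0.16, limma adjusted p = 5.16e-05), and its level was then 0.05 from that of control muscle. Zdbf2, an imprinted zinc finger gene, Armh4, Frem2, a basement membrane protein, and the gap junction protein Gja5 rose by 2.08, 1.74, 1.59 and 1.57. The chloride channel relative Clic3, the kallikrein Klk1b8 and Tecrl, a striated-muscle relative of a fatty acid reductase, rose by 1.58, 1.59 and 1.54. Trp63, a p53 family member best known from keratinocytes, was at 7.42, 7.58 and 7.51 and then at 9.38, 8.31 and 9.31 (1.5 ± 0.21). It was the only one of 14 keratinocyte markers that passed: the basal keratin Krt5 lay at 5.21 to 5.49 on all 6 arrays. Ripply1, a corepressor of somite formation, rose by 1.53 ± 0.12. Klk1b8 and Tcp11x2 have close relatives in the genome that their probes might also read. In each of the 12 largest rises and 12 largest falls, day 6 replicate 2 lay nearer to the day 3 mean than both other day 6 arrays.

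**Figure D5:**
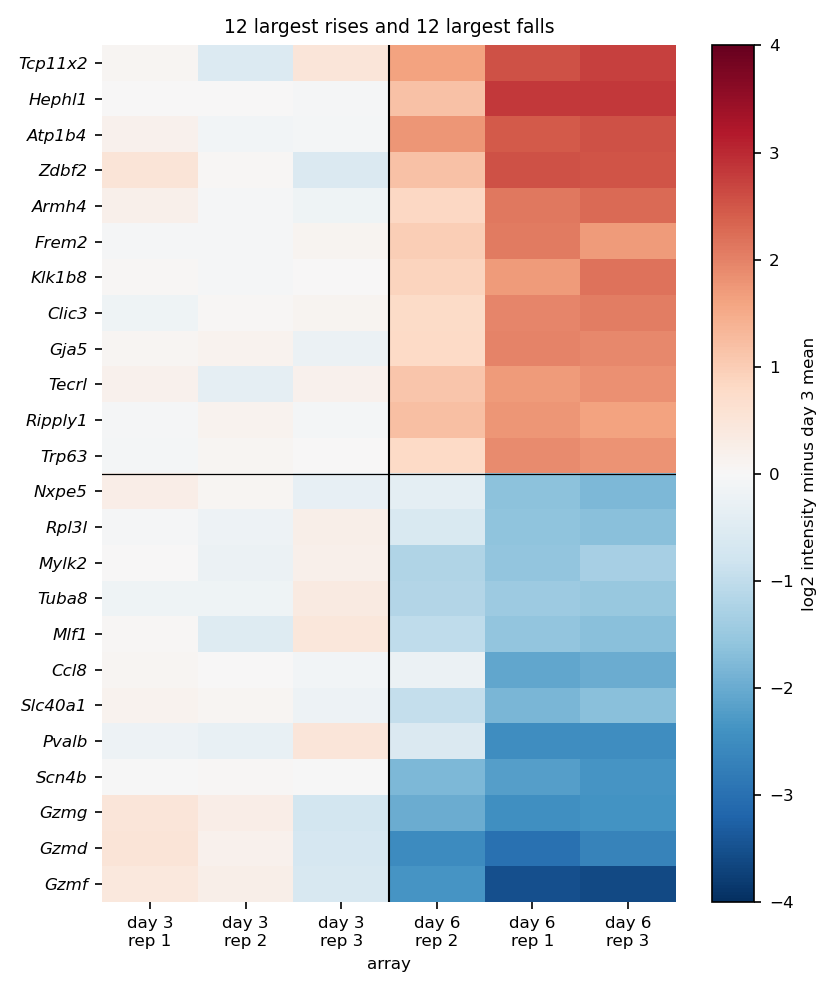
Each row is 1 of the 12 largest rises or 12 largest falls among called genes whose groups did not overlap, each column 1 array, and colour the log2 intensity minus the day 3 mean (red higher, blue lower). Day 6 replicate 2, placed next to the day 3 arrays, is paler than replicates 1 and 3 in most rows, with Ccl8 and Nxpe5 nearly at the day 3 colour and Gzmd, Mylk2 and Scn4b close to their group.

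The 30 genes called from the 6 arrays alone passed without the spread of the other groups. Besides Myh8, Atp1b4, Ripply1, Colq and Rspo3 they included, on the rising side, the glycosyltransferases Galnt5 (1.48) and B3galt2 (1.41), the chitinase-like Chil1 (1.36), Abra, an actin-binding activator of SRF signalling in striated muscle (1.14), the muscle heat shock protein Hspb3 (1.08) and Lmcd1, a LIM protein of muscle (0.91). On the falling side were Gzmf, Gzmd, Scn4b, Tuba8, Mylk2, Slc2a4 and St8sia5, with the protease Adamts16 (-1.04) and the endothelial adhesion receptor Adgrl4 (-0.76).

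The array also held probe sets for small RNA genes. Whether they read precursor, host or mature transcripts was not tested. The microRNA genes were taken by symbol, which also took in host genes such as Mir99ahg. None of 302 such genes rose and 8 fell (median 0.01), a smaller share each way than the 6.05% and 4.38% of all genes. Without day 6 replicate 2, 2 rose and 22 fell, again a smaller share each way than the 12% and 12.4% of all genes. Of 52 small nucleolar RNA genes none rose and 5 fell (median -0.24), and without replicate 2 1 rose and 30 fell (median -0.44), beside 12.4% of all genes lower in that fit. Among the 8 were Mir99a and Mirlet7c-1, whose hairpins lie 657 bases apart on the plus strand of chromosome 16, at chr16:77598936-77599000 and chr16:77599657-77599750 in GRCm38.p6. The mature strands that these loci encode, from RefSeq, are shown with the seed (bases 2 to 8) in capitals, and the seeds differ.
mmu-miR-99a-5p: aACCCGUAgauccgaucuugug
mmu-let-7c-5p: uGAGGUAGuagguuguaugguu
Mir99a was at 7.65, 7.48 and 7.73 at day 3 and at 6.31, 7.42 and 6.23 at day 6 (-0.97 ± 0.26, limma adjusted p = 0.0329; -1.35 without replicate 2). Mirlet7c-1 was at 5.94, 5.61 and 5.57 and then at 4.72, 5.37 and 4.69 (-0.78 ± 0.18, limma adjusted p = 0.0173). Mir99a was not called when any 1 array other than day 6 replicate 2 was left out (adjusted p from 0.0715 to 0.158), nor was Mirlet7c-1 without day 3 replicate 1 or day 6 replicate 1 or 3 (0.0694, 0.0863 and 0.0946). In both, replicate 2 lay just under the lowest day 3 array and the other day 6 arrays lay well below it. Mir99ahg, the host gene of the pair, differed by -0.37 ± 0.14 (adjusted p = 0.132), and by -0.52 without replicate 2 (0.0126).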

How the data were processed

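Affymetrix arrays of the 12 samples were used as deposited: RMA intensity on a linear scale, made by the authors per the submitters' processing notes, with the software version not given in the sources used here. Of 34760 probe sets, 21640 had 1 gene symbol in the platform annotation, 1321 had several and 11799 had none; the last 2 kinds were left out. For each of 19937 genes the probe set with the highest mean was kept (954 genes had several). Log2 values of all 4 groups were fitted with limma 3.58.1 in R 4.3.3 (lmFit, eBayes), day 6 minus day 3 was taken as a contrast, and p-values were adjusted by Benjamini-Hochberg over all genes, with calls at an adjusted p under 0.05. The residual spread was shared by the groups, and the median SE of a difference was 0.086 with 12.2 degrees of freedom. Precision is limited by how many arrays each group holds. The fit was repeated without day 6 replicate 2, and was tested on simulated data. In that second fit the values are those of 11 arrays.

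Genes always named were the myogenic factors Myod1, Myog, Myf5 and Pax7, the muscle genes Myh3, Myh8, Myh4 and Ckm, the cycle genes Mki67 and Ccnd1, and Yap1, Ccn1, Ccn2 and Ankrd1. The others came from the 12 largest rises and 12 largest falls among called genes with separate arrays (predicted genes and small RNAs left out), the 6 largest each way among genes called only without day 6 replicate 2, the 4 largest differences of each list, the largest called member against its list's majority, and the 5 genes with the largest SD at day 6. Further names were chosen after their values were seen. The comparison, the 46 gene lists (823 genes, 772 measured) and the tests were chosen with earlier results of these data known. Alternatives changed the normalization, probe set choice, filter, variance model, arrays fitted and single replicates. Promoter and miRNA sequences came from RefSeq tables (GRCm38.p6), searched with Python 3.11.15 and aligned with Biopython 1.88; 15613 of the tested genes had a promoter there.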

Additional observations from a re-analysis of the deposited data

How the results depend on the processing

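The number of genes called between day 3 and day 6 (2080) was 63 with cyclic loess over the 6 arrays, 30 with those 6 arrays fitted alone, 8424 with array weights (day 6 replicate 2 had the lowest weight, 0.16), 467 at an adjusted p under 0.01 and 108 at 2-fold or more. It ranged from 452 to 4874 when 1 of the 6 arrays was left out, and lay between 1431 and 2496 under the other settings. Cyclic loess is also confined to 6 arrays, so it changes the arrays as well as the normalization, and the cause of the other shifts was not tested. The share of calls that were higher, 58%, was 51.5% after quantile normalization, 49.9% after centring each array on its median, 49.3% without day 6 replicate 2, 45.1% without day 3 replicate 3 and 71.8% without day 3 replicate 1. The 4874 genes called without day 6 replicate 2 became 3169 at an adjusted p under 0.01. Other settings of that fit gave 3790 to 5399 calls, and these settings were chosen after seeing the data. Of genes higher in control muscle, 10.7% rose and 4.78% fell after quantile normalization; leaving out 1 array gave 2.12% to 13.2% and 0.578% to 6.79%. Of genes lower in control muscle, leaving out 1 array gave 1.17% to 12.4% rising and 1.17% to 24.7% falling.

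With the replicate number as a block 1654 genes were called, and 4279 without day 6 replicate 2. The numbers are not shown to pair the samples: deviations of same-numbered arrays from their group means correlated at -0.254, -0.153 and -0.053, and Myod1 lost its call in this fit (adjusted p = 0.051).

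The sign reversed for 9 of the genes named, none of them called in the comparison of 3 with 3. With array weights the differences were -0.07 for Chrne, -0.2 for Gzmb, -0.03 for Krt5, 0.02 for Myf5 and 0.09 for Myh4. Krt5 was at -0.01 after quantile normalization and after cyclic loess, and Top2a at -0.03 as the mean of its probe sets. Leaving out 1 array gave -0.16 to 0.48 for Bub1, -0.11 to 0.86 for Chad, -0.14 to 0.28 for Gzmb, -0.07 to 0.07 for Krt5, -0.22 to 0.03 for Mki67, -0.28 to 0.02 for Myh4 and -0.16 to 0.2 for Top2a.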
